A study of Mus musculus with 26 samples.

Results

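A total of 3962 genomic sites carried both C/EBPalpha and C/EBPbeta in resting mouse liver and appeared in no list of either factor at 48 h or 168 h after partial hepatectomy. They are called here sites not regained, or members, and were chosen by their presence in and absence from those lists. The centres of all regions in the 16 deposited C/EBP lists were chained into 1 site wherever neighbouring centres lay at most 100 bp apart, which gave 113957 sites. Both lists of 0 h held 20601 of these sites, and 3962 of them (19.2%) were in none of the 4 lists of 48 h and 168 h. The other 16639 sites of 0 h, in at least 1 of those 4 lists, are the comparison throughout and are called regained. A regained site need not have been absent in between. Absence from a list means only that the authors' region calling did not report the site.

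The series mapped protein binding during liver regeneration by ChIP-seq, in which an antibody pulls down a protein together with its DNA, and that DNA is sequenced. All animals were wild-type male C57BL6/J mice, 7 weeks old, from which 3 of 5 liver lobes were removed. The resected lobes gave the 0 h tissue, and the regrowing livers were collected 3, 8, 16, 24, 36, 48 and 168 h after the operation. Antibodies against C/EBPalpha (Sc-61), C/EBPbeta (Sc-150) and RNA polymerase II (Pol II, AC-055-100) were used at all 8 times, and one against Egr1 (Sc-110x) at 36 h. No operated control without lobe removal is among the samples used here. Each antibody and time had 1 sample from the livers of 5 mice, and the sources used here do not say whether these mice were pooled. There were thus no replicates, and a difference between times cannot be told apart from a difference between libraries. Livers were used whole, so fewer cells with a bound site and less binding per cell cannot be told apart.

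C/EBPalpha and C/EBPbeta are related leucine zipper transcription factors that bind the same DNA sequences as dimers with each other. In hepatocytes C/EBPalpha is known for sustaining metabolic genes and for restraining cell division, while C/EBPbeta is induced by acute phase signals and by partial hepatectomy. A liver that has lost tissue regrows mainly through division of its remaining hepatocytes. The bound form of the motif is a palindrome of 2 inverted copies of TTGC, often with mismatches.

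Sequences can be shown for the few sites not regained that lay just before a gene start, since the promoters there are in RefSeq. They are a small share of the members, most of which lay far from starts. In 36 measured genes a member centre fell within the 250 bp before the start, and 15 of these genes had a single start in the RefSeq promoter table (build GRCm38.p6). The 6 stretches given here are those of the 15 whose gene length in that build was within 100 bp of the length in the deposited files and which could be printed. Each runs 5′ to 3′ on the gene's strand and ends at the base before the start. Capitals mark the letters TTNNGNAA or TTNCNNAA, each of which keeps the outer letters and 1 inner letter of the C/EBP motif and is the other's reverse complement, so that both strands are covered.
Aadac: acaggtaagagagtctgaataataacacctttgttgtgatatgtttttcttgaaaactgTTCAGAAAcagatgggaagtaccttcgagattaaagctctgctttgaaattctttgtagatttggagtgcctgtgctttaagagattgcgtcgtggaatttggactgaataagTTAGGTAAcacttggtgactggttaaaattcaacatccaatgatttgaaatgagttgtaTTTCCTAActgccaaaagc
Apoa1: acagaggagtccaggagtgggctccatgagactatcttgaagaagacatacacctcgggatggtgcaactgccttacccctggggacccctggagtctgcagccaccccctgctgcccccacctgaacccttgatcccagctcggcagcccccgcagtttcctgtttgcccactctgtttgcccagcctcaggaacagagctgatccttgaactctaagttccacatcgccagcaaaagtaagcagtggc
Cyp2c29: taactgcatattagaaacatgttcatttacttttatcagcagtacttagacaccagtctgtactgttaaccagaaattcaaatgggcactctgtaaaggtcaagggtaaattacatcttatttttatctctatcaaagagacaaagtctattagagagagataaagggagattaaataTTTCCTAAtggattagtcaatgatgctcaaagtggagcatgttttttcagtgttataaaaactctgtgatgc
Cyp2c67: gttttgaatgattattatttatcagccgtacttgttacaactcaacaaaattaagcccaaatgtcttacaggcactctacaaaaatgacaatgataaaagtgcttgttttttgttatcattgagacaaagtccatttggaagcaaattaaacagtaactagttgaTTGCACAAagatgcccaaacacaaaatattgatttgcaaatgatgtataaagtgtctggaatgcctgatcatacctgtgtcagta
Mcm10: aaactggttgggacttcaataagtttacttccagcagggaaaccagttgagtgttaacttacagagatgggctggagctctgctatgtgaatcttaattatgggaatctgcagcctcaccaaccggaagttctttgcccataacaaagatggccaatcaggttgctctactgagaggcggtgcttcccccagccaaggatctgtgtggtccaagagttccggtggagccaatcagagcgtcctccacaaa
Uqcrc1: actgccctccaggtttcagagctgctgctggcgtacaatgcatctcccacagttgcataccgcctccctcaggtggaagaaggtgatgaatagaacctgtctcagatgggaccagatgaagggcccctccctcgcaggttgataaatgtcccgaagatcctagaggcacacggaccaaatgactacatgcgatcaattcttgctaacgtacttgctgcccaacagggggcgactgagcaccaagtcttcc
The stretches cover, in GRCm38.p6, chr3:60031538-60031787 (plus strand), chr9:46228380-46228629 (plus), chr19:39286835-39287084 (plus), chr19:39649043-39649292 (minus), chr2:5012792-5013041 (minus) and chr9:108936398-108936647 (plus), in the order given.

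Aadac, which encodes an arylacetamide deacetylase of the liver, held 3 matches, and the cytochrome P450 genes Cyp2c29 and Cyp2c67 held 1 each. The stretches of Apoa1, the main protein of high-density lipoprotein, Mcm10, a DNA replication factor, and Uqcrc1, a mitochondrial respiratory subunit, held none. In the mm9 coordinates of the files, the member centres lay 68 bp (Aadac), 219 bp (Apoa1), 2 bp (Cyp2c29), 58 bp (Cyp2c67), 130 bp (Mcm10) and 116 bp (Uqcrc1) before the start. These distances carry over to the other build only roughly, since gene lengths differed by 2 to 86 bp. Of all 15 stretches, 10 (66.7%) held a match, against 36.8% of 32851 promoters of the same length. The stricter forms TTGCNNAA or TTNNGCAA were in 1 of 15 (6.67%) and in 9.56% of all promoters. These letters describe the sequences only, and no match says only that the letters are not in the window.

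The C/EBP lists differed in length, from 20061 regions (C/EBPalpha at 48 h) to 54574 (C/EBPbeta at 0 h), and the 4 lists that members had to miss were the shortest, at 20061 to 25972. How far list length and depth set membership was not tested beyond the equal-length lists given here, and the files give no read counts. The mock immunoprecipitation was not analysed here. In the Pol II data 1 library stood apart: the signal at 3 h summed to below 0 and 50.6% of its gene entries were below 0, against 38.4% to 44.3% in the other 7 libraries. The 6 hepatocyte markers were above 0.5 per bp in all 8 Pol II libraries, with a summed level of 278 to 683. The sums of the Kupffer cell, endothelial, stellate, cholangiocyte and lymphocyte markers were 0 to 5.64 per bp.

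Most sites not regained were listed at some time from 3 h to 36 h, although 2028 were in neither list of 3 h. Only 499 of the 3962 members (12.6%, Wilson 95% interval 11.6 to 13.7) were in none of the 10 lists from 3 h to 36 h, which the rule did not use. For 63 members (1.59%) the last list was at 3 h, for 416 (10.5%) at 8 h, for 242 (6.11%) at 16 h, for 1294 (32.7%) at 24 h and for 1448 (36.5%) at 36 h. Most members thus had their last listing at 24 h or 36 h. Intervals here and in the rest cover counting error only, not the spread between animals or libraries.

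**Figure D1:**
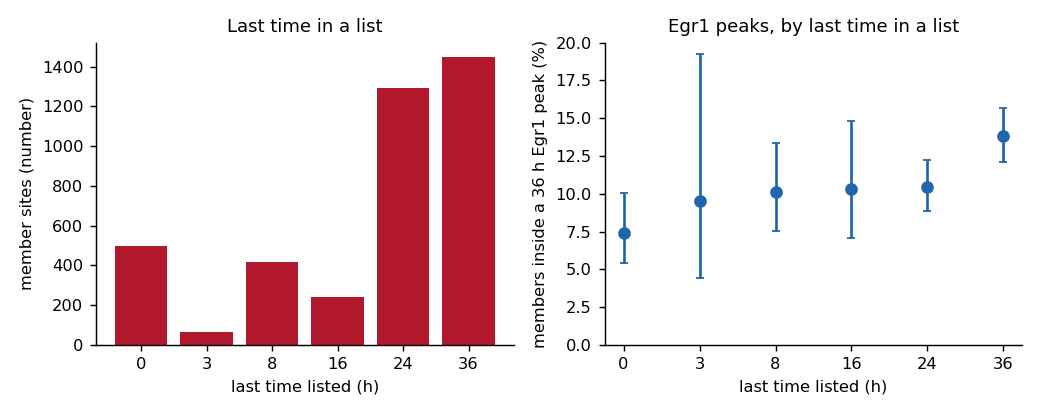
Left, number of sites not regained (bars) by the last time, in hours, at which either factor listed them. Right, percentage of these sites inside an Egr1 peak of 36 h, by the same last time (points, with Wilson 95% intervals). The bars are highest at 24 h (1294) and 36 h (1448), and the Egr1 share ran from 7.41% of sites last listed at 0 h to 13.8% of those last listed at 36 h.

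Presence flickered. With either factor counted, 1934 members (48.8%) were listed at 3 h, 2680 (67.6%) at 8 h, 2210 (55.8%) at 16 h, 2581 (65.1%) at 24 h, then 1448 (36.5%) at 36 h. The low points were 3 h and 36 h. The corresponding shares of regained sites were 93.3%, 96.7%, 90.02%, 91.4% and 90.5%. Of the members, 681 (17.2%) were listed at all 5 times, and 459 (11.6%) at the first 4 times and not at 36 h. Of all members, 1953 (49.3%) were absent at some time and listed again by 36 h. The other 2009 (50.7%) had no such return. They include the 681 and the 459 just named, and the 499 listed at none of the 5 times. Of 2028 members absent at 3 h, 938 (46.3%) were listed at 8 h.

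From 24 h to 36 h a smaller share of members than of regained sites stayed listed. Of 2581 members listed at 24 h, 1287 (49.9%) were also listed at 36 h, whereas 14175 of 15215 regained sites (93.2%) were. The step from 0 h to 3 h was much alike, with 48.8% of members and 93.3% of regained sites listed at 3 h. Over the 10 middle lists a member was in a median of 4 and a regained site in a median of 9. All 10 lists held 49 members (1.24%) and 7993 regained sites (48.0%). Sites that missed the lists of 48 h and 168 h were thus in fewer lists before them as well.

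The 2 factors did not leave at the same times. C/EBPalpha listed 46.7% of members at 3 h, 42.8% at 8 h, 43.9% at 16 h, 53.6% at 24 h, then 27.1% at 36 h. C/EBPbeta listed 10.8% at 3 h, 59.3% at 8 h, 45.0% at 16 h, 52.2% at 24 h, then 20.6% at 36 h. The C/EBPbeta share was thus lowest at 3 h and highest at the next time, while the C/EBPalpha share stayed within a narrower range until 24 h.

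At 3 h, 1505 members (38.0%) were listed for C/EBPalpha alone, 85 (2.15%) for C/EBPbeta alone and 344 (8.68%) for both. At 8 h, 332 (8.38%) were listed for C/EBPalpha alone and 983 (24.8%) for C/EBPbeta alone, in full lists of 31267 and 36258 regions. Among regained sites the 3 h share was also the lowest for C/EBPbeta, at 76.9% against 84.0% to 94.7% at the other 4 times. The C/EBPbeta list of 3 h held 35256 regions, more than those of 16, 24 and 36 h (28720 to 34098) and fewer than that of 0 h (54574). Over the 5 times the C/EBPalpha share minus the C/EBPbeta share had a mean of 5.21 percentage points and was positive at 3 times. A two-sided exact sign-flip permutation gave p = 0.625, where 5 times cannot give less than 0.0625. The gaps at 3 h and 8 h had opposite signs and partly cancel in this mean, so it does not address timing.

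**Figure D2:**
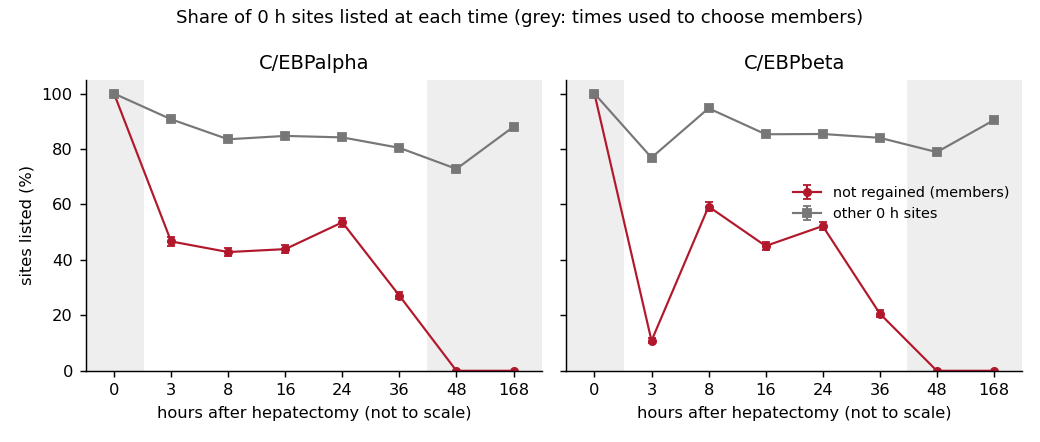
Percentage of 0 h sites listed at each time in hours (axis not to scale) for C/EBPalpha (left) and C/EBPbeta (right). Red circles are the 3962 sites not regained and grey squares the 16639 other sites, with Wilson 95% intervals; grey bands mark the times used to choose the sites. The red C/EBPbeta points go from 10.8% at 3 h to 59.3% at 8 h, then 20.6% at 36 h, all below the grey ones.

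Equal list lengths left 3 h and 36 h as the low points of C/EBPbeta, with 24 h in place of 8 h as the high point. When every middle list was limited to its 20061 top-scoring regions, C/EBPbeta held 3.41% of members at 3 h, 24.5% at 8 h, 25.7% at 16 h, 30.6% at 24 h, then 7.27% at 36 h. C/EBPalpha then held 23.6%, 25.4%, 24.8%, 34.0% and 17.1%. At 8 h the full lists held more members for C/EBPbeta than for C/EBPalpha, and the equal-length lists held nearly the same number (971 and 1006). Regained sites were at 59.6% to 79.6% over both factors in the same lists.

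Sites not regained had lower scores at 0 h than regained sites. The score is the authors' and was turned into a percentile within its own list, so that 100 is the highest-scoring region. The median C/EBPalpha percentile was 32.3 for members and 68.4 for regained sites, and the median C/EBPbeta percentile was 57.9 and 81.8. Only 32 members (0.808%) were above percentile 90 of the C/EBPalpha list and 154 (3.89%) above that of C/EBPbeta, against 16.9% and 30.3% of regained sites. Since the 0 h lists chose the sites, these values describe them and test nothing.

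The share not regained went down with the score. The 0 h sites were put into 10 bins of about equal size by their mean percentile over both 0 h lists, from bin 1 (lowest) to bin 10 (highest). Of the 2065 sites in bin 1, 956 (46.3%) were not regained. In bin 5 the share was 19.9% (408 of 2051), and in bin 10 it was 0.973% (20 of 2056). Up to bin 8, members with a lower score were more often in no later list: 20.6% in bin 1, 4.82% in bin 6 and 1.10% in bin 8. In bins 9 and 10, with few members, the shares were 5.26% (2 of 38) and 10% (2 of 20). The 20 members of bin 10 were in a median of 6 middle lists.

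**Figure D3:**
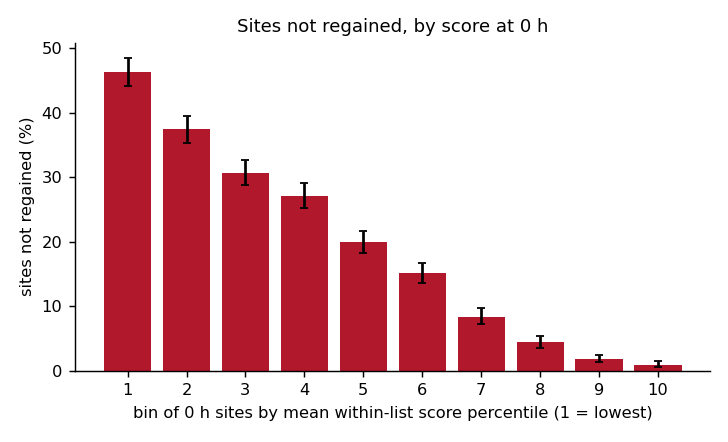
Percentage of 0 h sites not regained (bars, with Wilson 95% intervals) in 10 bins of the mean within-list score percentile at 0 h, from 1 (lowest) to 10 (highest). The bars step from 46.3% in bin 1 to 0.973% in bin 10.

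Within broad score bins, smaller shares of members than of regained sites were listed in the middle lists. Among sites in bins 1 to 5, the 3 h C/EBPbeta list held 9.97% of 3329 members and 68.9% of 6973 regained sites. Among sites in bins 6 to 10 it held 15.3% of 633 members and 82.7% of 9666 regained sites. For C/EBPalpha at 36 h the shares were 24.4% and 66.3% in bins 1 to 5, and 41.2% and 90.6% in bins 6 to 10. Where members were listed, their scores were low too: the median percentile in the middle lists was 32.7 to 44.5 for C/EBPalpha and 28.2 to 46.8 for C/EBPbeta, against 69.5 to 74.6 for regained sites over both factors.

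The border of the rule was crossed by many sites. Of the 20601 sites of 0 h, 1892 were in only 1 of the 4 lists of 48 h and 168 h, just outside the rule, and 10666 (51.8%) were in all 4. That 1 list was C/EBPbeta at 168 h for 975, C/EBPalpha at 168 h for 536, C/EBPbeta at 48 h for 266 and C/EBPalpha at 48 h for 115. Sites in 1 list had median 0 h percentiles of 41.3 (C/EBPalpha) and 67.5 (C/EBPbeta), between those of members and of sites in all 4 lists (76.4 and 87.0). Their median number of middle lists was 7.

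Some members lay beside a region that was listed late. A centre from one of the 4 late lists lay within 200 bp of 101 members (2.55%) and within 500 bp of 387 (9.77%), and the median distance was 7571 bp. The share with such a neighbour differed by score: 7.96% of the 3329 members in bins 1 to 5 had a late centre within 500 bp, against 19.3% of the 633 above and 33 of the 58 (56.9%) in bins 9 and 10. For these high-scoring members the rule thus often separated centres of 0 h and of late lists that were under 500 bp apart.

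The 8 highest-scoring members show this. The highest lay at chr7:134418031-134418171 (mm9), 684 bp upstream of Sephs2, which encodes a selenophosphate synthetase, with percentiles of 99.9 in both 0 h lists. Both factors listed it at 16 h and 24 h, C/EBPalpha also at 8 h, and a late centre lay 352 bp away. The next was at chr1:71959205-71959265, far (259486 bp) from its nearest measured start, that of Fn1 (fibronectin), with a late centre at 166 bp. For the members nearest to Slc16a7 (a monocarboxylate transporter), 4930443G12Rik, Srd5a1 (a steroid reductase) and Nrp2 (a semaphorin and growth factor receptor), late centres lay at 265, 247, 319 and 212 bp. The member nearest to Dio3 (a thyroid hormone deiodinase) had one at 533 bp. Of the 8, the member nearest to Col19a1 (a collagen chain), at chr1:24618330-24618402, was alone in having no late centre nearby (66800 bp), and it was listed by both factors at 8, 16 and 24 h.

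Sites not regained lay farther from gene starts. Within 1 kb of a measured start were 253 members (6.39%, Wilson 95% interval 5.67 to 7.19) and 11.1% of regained sites, and within 250 bp 40 members (1.01%) and 4.41%. The median distance was 27024 bp and 20968 bp. Inside a measured gene lay 41.6% of members and 39.4% of regained sites. Of members within 1 kb of a start 17.8% (13.6 to 23.0) were in the 3 h C/EBPbeta list, and of those farther away 10.4% (9.41 to 11.4). At the other 4 times the C/EBPbeta shares of these groups were 21.3% to 56.1% and 20.6% to 59.5%.

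A regained site lay within 1 kb of 231 members (5.83%) and within 10 kb of 1508 (38.1%). By autosome the share of 0 h sites not regained ran from 15.3% (117 of 765, chromosome 17) to 22.4% (226 of 1009, chromosome 13), on the X chromosome it was 26.9% (75 of 279), and on the Y chromosome 3 of 5 sites were not regained.

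Egr1, an immediate early zinc finger factor, overlapped a smaller share of members than of regained sites. Its 36 h peaks held the centres of 445 members (11.2%, 10.3 to 12.3) and of 3746 regained sites (22.5%). Beyond 1 kb of a start the shares were 11.3% and 24.2%, and within 1 kb 10.3% and 9.37%, so the gap lay at sites away from starts. Members still listed at 36 h were inside an Egr1 peak in 13.8% of cases (12.1 to 15.7), and those in no later list in 7.41% (5.43 to 10.1). These groups also differed in 0 h score. Their median percentiles were 41.3 and 22.7 for C/EBPalpha, and 63.0 and 45.5 for C/EBPbeta. Egr1 shares at like scores were not tested.

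Pol II was then followed at genes near the sites. Levels are the deposited signal per bp of measured gene body, rescaled between libraries, and changes are differences of log2(level + 0.5) against the single 0 h library. A member lay within 10 kb of the start of 1294 of 20933 measured genes, with 1 member in 1180 genes, 2 in 109 and 3 in 5. Of these genes 584 were above 0.5 per bp in at least 2 libraries and could be tested, and 710 were not tested. A regained site lay within 10 kb as well in 381 of the 584. By a limma trend over the 8 libraries, 0 of the 584 had an adjusted p under 0.05, beside 0.021% of all 4761 genes tested. At an unadjusted p under 0.05 there were 47 (8.05%), beside 9.62% of all tested genes. The smallest adjusted p near a member was 0.317, for Txnip.

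In the 3 h library more genes near members were low. Of the 584, 178 (30.5%) were lower by 1 or more on the log2 scale than at 0 h, beside 21.4% of all tested genes, and 72 (12.3%) were higher, beside 18.1%. The median change was -0.38 near members and -0.08 over all tested genes. Genes near regained sites only, 1968 in number, were lower in 22.7% of cases. The 203 genes near members with no regained site within 10 kb gave 30.05%, and the 381 with one gave 30.7%. Since the 3 h library is the one that sums to below 0, the levels of all 8 libraries were also reset so that the median untested gene was at 0 in each, which changed the genes that could be tested. Of 656 genes near members 160 (24.4%) were then lower at 3 h, against 15.4% of all tested. What part the 3 h library's low signal has in these shares was not tested further.

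From 8 h to 48 h the gaps to the background in the lower share were smaller than at 3 h. In the higher share the gap at 36 h was nearly as large as at 3 h. At 8 h, 70 (11.99%) were lower and 75 (12.8%) higher, beside 12.8% and 14.5% of all tested genes. The shares lower were 14.7% at 16 h (86 genes, beside 10.6%), 11.8% at 24 h (69, beside 14.4%) and 13.2% at 36 h (77, beside 11.1%). Those higher were 11.5% (67, beside 15.1%), 18.5% (108, beside 18.4%) and 10.8% (63, beside 16.5%). At 48 h, the first time when no member was listed, 85 (14.6%) were lower, beside 13.5%, and 78 (13.4%) were higher, beside 15.2%.

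At 168 h, with the sites still unlisted, fewer genes near members were low than in the background. Lower by 1 or more were 75 (12.8%), beside 19.3% of all tested genes, and higher were 112 (19.2%), beside 17.7%. The gap in the lower share lay mostly at genes that also had a regained site within 10 kb. Of those 381 genes 41 (10.8%) were lower, against 34 (16.7%) of the 203 without one. Genes near regained sites only were lower in 17.9% of cases, and the 116 with a member within 1 kb in 18.1%. With no filter on low values the order of the lower shares turned, to 6.96% near members and 6.19% of all measured genes, and without rescaling that of the higher shares did, to 6.09% and 6.15%. The median change was 0.26 near members and 0.00 over all tested genes. Of the 584 genes, 137 (23.5%) were lower at 3 h and within 1 of their 0 h value at 168 h, a course that 14.3% of all tested genes had. In all, 159 (27.2%) stayed within 1 of 0 h at all 7 later times, beside 27.4% of all tested genes. Lower by 1 or more at both 48 h and 168 h were 39 (6.68%, of all tested 7.77%), and higher at both were 55 (9.42%, of all tested 8.67%).

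**Figure D4:**
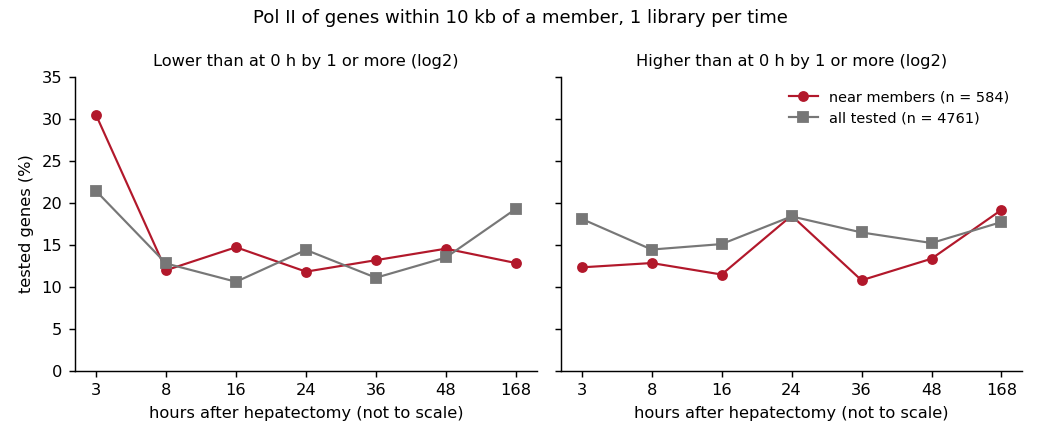
Percentage of tested genes whose Pol II was lower (left) or higher (right) than at 0 h by 1 or more on the log2 scale, by time in hours (not to scale), with 1 library per time and no error bars. Red circles are the 584 genes within 10 kb of a site not regained and grey squares all 4761 tested genes. The largest gap on the left is at 3 h (30.5% and 21.4%), and at 168 h the order is the other way round (12.8% and 19.3%).

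Pol II was also set beside the presence of the nearby site at the same time. At 3 h, 331 genes had a nearby member still listed and 253 did not. Of these 26.9% and 35.2% were lower (all tested 21.4%), and 11.2% and 13.8% higher (all tested 18.1%). At 8 h 11.7% and 12.7% were lower and 13.1% and 12.03% higher, with median changes of 0.00 and 0.06. At 24 h, 38 of 386 genes with a listed member (9.84%) and 31 of 198 without (15.7%) were lower (all tested 14.4%), while 86 (22.3%) and 22 (11.1%) were higher (all tested 18.4%). At 36 h the median changes were 0.04 and 0.03. These gene groups were not tested against each other, since each time has 1 library.

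Among genes with a member within 1 kb, the 8 with the highest Pol II at 0 h went different ways. Sephs2, beside the highest-scoring member, stood at 104.6 per bp at 0 h and at 30.4, 31.8, 21.2, 38.1, 30.1, 30.9 and 44.6 at the later times. It was lower than at 0 h in all 7 later libraries, by 1.22 to 2.28 on the log2 scale (limma adjusted p = 0.514). Apoa1 stood at 305.2 at 0 h, 648.8 at 3 h, 280.3 at 8 h, 242 at 16 h, 204.3 at 24 h, 248.8 at 36 h, 298.5 at 48 h, then 134.1 at 168 h. Its level was highest at 3 h and lowest at 168 h, and its member, at chr9:46036486-46036768 (mm9), was last listed at 36 h by both factors and is shared with the neighbouring Apoc3.

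Txnip, which binds thioredoxin and limits glucose uptake, stood at 22.8 at 0 h, 26.4 at 3 h, 11.2 at 8 h, 2.94 at 16 h, 2.24 at 24 h, 1.08 at 36 h, 2.07 at 48 h, then 7.72 at 168 h. It was low from 16 h to 48 h, with its member 798 bp inside the gene listed by both factors at 16 h and 24 h and by neither at 3 h, 8 h or 36 h. Ttr, the plasma carrier of thyroxine, was at 17.9 at 0 h, 2.39 at 3 h and 17.5 to 27.3 at the other times, so the 3 h library alone was low. Cyp2d10, a cytochrome P450 with close paralogs whose reads may be split, was at 12.3 at 0 h, 0.81 at 3 h and 2.86 to 6.01 from 8 h on.

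Eef1a1, Grhpr and Cml2 completed the 8, with changes of -1.05, -0.54 and 1.52 at 168 h. Eef1a1, a translation elongation factor with many processed copies in the genome, was at 26.4 at 0 h, 30.4 at 3 h and 12.5 to 18.9 later. Grhpr, a glyoxylate reductase, was at 10.2 at 0 h, then 25.1 at 3 h, and between 6.87 and 18.9 later. Its member was in no later list. Cml2 was at 9.18 at 0 h and 13.4 to 27.2 later, with the highest level at 168 h.

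**Figure D5:**
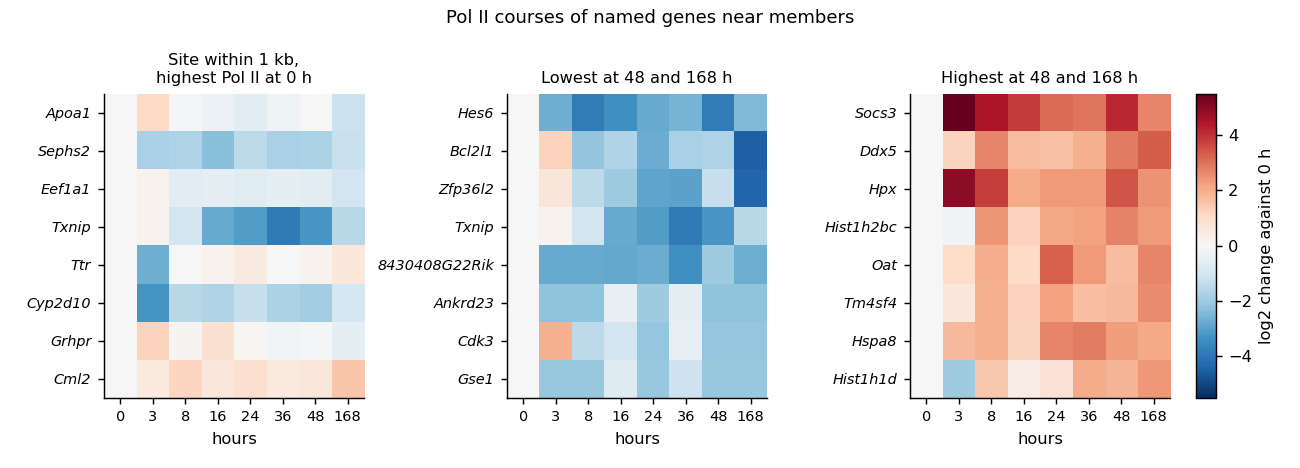
Change of Pol II against 0 h, as a difference of log2(level + 0.5), by time in hours for genes near sites not regained (red higher, blue lower; 1 library per time). The 3 blocks are the genes with a site within 1 kb and the highest 0 h level, and the 8 lowest and 8 highest of all nearby genes by their mean change at 48 h and 168 h. Sephs2 is lower at all 7 later times, Ttr at 3 h (-2.67), and Socs3 reaches 5.48 at 3 h.

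The genes with the lowest Pol II at 48 h and 168 h were Hes6, Bcl2l1, Zfp36l2, Txnip, 8430408G22Rik, Ankrd23, Cdk3 and Gse1, with mean changes of -3.15 to -2.08. Hes6, a basic helix-loop-helix factor, was at 6.76 at 0 h and at -0.80 to 0.84 later, and its member, 624 bp upstream, was still listed for C/EBPalpha at 36 h. Bcl2l1, a survival factor of the Bcl2 family, was measured over chr2:152655024-152655902 (mm9) only. It was at 10.9 at 0 h, 27.2 at 3 h, 1.197 to 3.13 from 8 h to 48 h and -1.75 at 168 h. Zfp36l2, which promotes decay of AU-rich mRNAs, had a like order, with 9.78, 15.7, 0.84 to 3.80 and -1.19. 8430408G22Rik was at 71.2 at 0 h and 6.43 to 17.9 later. Of these genes Ankrd23, Cdk3 and Gse1 were below 2 per bp at 0 h, where the change rests on the pseudocount.

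The genes with the highest Pol II at 48 h and 168 h were Socs3, Ddx5, Hpx, Hist1h2bc, Oat, Tm4sf4, Hspa8 and Hist1h1d, with mean changes of 2.12 to 3.42. Socs3, a feedback inhibitor of cytokine signalling, was at 2.38 at 0 h, 128.3 at 3 h, 63.9 at 8 h, 41.2 at 16 h, 24.2 at 24 h, 21.3 at 36 h, 50.9 at 48 h, then 17.9 at 168 h. Hpx, the haem-binding plasma protein hemopexin, was at 6.86 at 0 h, 220.5 at 3 h, 103.2 at 8 h, 80.4 at 48 h, then 40.5 at 168 h. For both genes every later library was above 0 h and 3 h was the highest. Their members differed: that of Socs3, 9961 bp downstream of the start, was in no later list, whereas that of Hpx, 925 bp upstream, was listed by C/EBPbeta at 16, 24 and 36 h.

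Oat, an ornithine aminotransferase, was at 0.98 at 0 h and reached 13.8 at 24 h, then 9.15 at 168 h. Hspa8, a constitutive chaperone with related gene copies, was at 1.76 at 0 h and 4.83 to 15.5 later. Ddx5, an RNA helicase, was at -0.20 at 0 h and 0.66 to 4.51 later, Tm4sf4 at 0.00 and 0.28 to 2.53. The measured entry of Ddx5 covered chr11:106645048-106645860 (mm9) and that of Hist1h2bc chr13:23776575-23784349. Whether these entries and that of Bcl2l1 match the whole genes was not checked. Of the highest genes Oat, Hspa8, Ddx5, Tm4sf4 and Hist1h2bc were below 2 per bp at 0 h, so their changes and ranks depend on the pseudocount. The histone genes Hist1h2bc and Hist1h1d belong to a family of near-identical copies, so their values are uncertain. The limma adjusted p of the genes in both groups was 0.317 to 0.681, and none passed.

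In 5 genes 3 members lay within 10 kb of the start. Azgp1, a secreted lipid-mobilising protein, had members at 5835 and 2288 bp upstream and 3937 bp downstream, one of them in no later list, and stood at 6.99 at 0 h, 1.84 at 3 h and 4.58 to 8.00 later. Gpam, the enzyme that begins glycerolipid synthesis, had one member upstream (1247 bp), listed by both factors up to 36 h, and members at 3668 and 6352 bp downstream, last listed at 8 h. Klf9, a zinc finger factor responsive to glucocorticoid, had 2 members in no later list (4860 and 6103 bp upstream) and one 1012 bp upstream listed by C/EBPalpha up to 36 h. Its Pol II was at 5.11 at 0 h and 2.25 to 5.06 later. Sites around one gene thus left at different times. Tprkb, a subunit of a tRNA modification complex, was at 2.26 at 0 h and -0.52 to 1.63 later, and Rhobtb1 was at 1.60 at 0 h and 0.44 to 1.63 later.

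Genes of liver functions were then counted in lists. A member lay within 10 kb of 6.18% of all measured genes and of 12.3% of all tested genes. Every member is a 0 h site of both factors, so the lists are better read against genes with any such site within 10 kb. Of 5669 such genes 1294 had a member. Drug metabolism had 16 of 51 measured genes near a member (31.4%), lipid metabolism 12 of 35 (34.3%), plasma proteins and coagulation 12 of 42 (28.6%), liver transcription factors 8 of 29 (27.6%), glucose and glycogen 5 of 22 (22.7%), urea and amino acids 8 of 36 (22.2%), and bile acids and sterols 6 of 31 (19.4%). None of their genes passed the trend test. The counts of lower and higher genes that follow are to be read against the shares of all tested genes, which were 21.4% lower and 18.1% higher at 3 h, 13.5% and 15.2% at 48 h, and 19.3% and 17.7% at 168 h. C/EBP sites of any kind were frequent there: 33 of the 35 lipid genes and 37 of the 51 drug metabolism genes had some 0 h site of both factors within 10 kb, against 5669 of all 20933 measured genes. Among genes with such a site, a member was near 16 of 37 for drug metabolism, 12 of 33 for lipids and 12 of 36 for plasma proteins. The counts were 8 of 23 for transcription factors, 5 of 18 for glucose, 8 of 32 for urea and amino acids, and 6 of 26 for bile acids. These shares were not tested.

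Of the 11 tested drug metabolism genes near a member 6 were lower by 1 or more at 3 h and 2 higher (all tested 21.4% and 18.1%), with a median change of -1.23. At 48 h 2 were lower and none higher, with a median of -0.43, and at 168 h none was lower and 1 higher, with a median of 0.42. Gsta3, a glutathione transferase, was at 11.6 at 0 h, 0.41 at 3 h, 5.33 at 8 h, 6.04 at 16 h, 11.4 at 24 h, 13.02 at 36 h, 6.02 at 48 h, then 14.9 at 168 h. Cyp2e1, a cytochrome P450 that oxidises ethanol, was at 47.4 at 0 h, 18.6 at 3 h, then 50.4 at 168 h. Both were within 1 of their 0 h level on the log2 scale at 168 h, when the member was not listed. Cyp4a10, a fatty acid hydroxylase, was below 0.5 per bp in all libraries, although its member, 1083 bp downstream, was in all 10 middle lists.

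Plasma protein genes were 6 lower and 2 higher of 12 at 3 h (all tested 21.4% and 18.1%), with a median change of -1.05. They were 2 lower and 1 higher at 48 h, and 2 lower and 2 higher at 168 h. Apoa2, an apolipoprotein of high-density lipoprotein, was at 82.9 at 0 h, 7.87 at 3 h, 24.5 to 46.0 later. Apoh, whose member 784 bp upstream was in no later list, was at 1.03 at 0 h, 0.05 at 3 h, then 2.21 at 168 h. Lipid genes were 5 lower and 1 higher of 10 at 3 h (all tested 21.4% and 18.1%), none lower or higher at 48 h and 168 h. Ppara, a nuclear receptor for fatty acids, had 2 members upstream, last listed at 3 h and 24 h, and was at 5.18 at 0 h, 2.25 at 3 h, then 5.63 at 168 h.

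Bile acid and sterol genes were 2 lower and none higher of 6 at 3 h (all tested 21.4% and 18.1%), 2 higher at 48 h, and 4 higher and none lower at 168 h (all tested 17.7% higher). Cyp7a1, which catalyses the rate-limiting step of bile acid synthesis, had a member 210 bp upstream of its start, last listed at 24 h. Its Pol II was at 5.64 at 0 h, -0.45 at 3 h, 6.77 at 8 h, 1.03 at 16 h, 3.72 at 24 h, 5.80 at 36 h, 4.96 at 48 h, then 25.03 at 168 h, the last being the highest. Glucose and glycogen genes were 3 lower and none higher of 5 at 3 h and at 48 h (all tested 21.4% and 13.5% lower), and none lower and 1 higher at 168 h. Slc2a2, the liver glucose transporter, was at 4.48 at 0 h, -0.13 at 3 h, 1.29 at 48 h, then 8.34 at 168 h, and Gys2, the liver glycogen synthase, at 2.30, -0.18, 0.71 and 3.77. The member of Gys2, 712 bp upstream, was last listed at 8 h.

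Urea and amino acid genes were 2 lower and 2 higher of 8 at 3 h, near the shares of all tested genes (21.4% and 18.1%). At 48 h 2 were higher, and at 168 h 4 were higher and none lower (all tested 17.7% and 19.3%). The liver transcription factors gave 1 lower (Ppara) and none higher of 7 tested at 3 h. At 168 h 1 was higher (Nr1h4, the bile acid receptor) and 1 lower (Foxa1, a pioneer factor, at 4.78 at 0 h, then 0.90 at 168 h). Hnf4a, which has 2 members last listed at 8 h and 16 h, stayed between 9.19 and 13.2 in all 8 libraries.

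Of 18 measured clock genes 7 were near a site not regained (38.9%), and 15 had any 0 h site of both factors within 10 kb. Of the 7, 3 were tested. Nfil3, a repressor of the clock's output, had a member 636 bp upstream with percentiles of 91.4 and 94.6 at 0 h that was in no later list. Its Pol II was at 3.66 at 0 h, 10.9 at 3 h and 2.46 to 3.92 later. Tef, an activator that binds the same elements as Nfil3, was at 3.83 at 0 h, 0.44 at 3 h, then 3.46 at 168 h. The sources used here do not give the hour of day of each collection.

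Most acute phase genes had C/EBP sites but no site not regained, as did most of all measured genes with a 0 h site of both factors. Of 26 measured genes 25 had a 0 h site of both factors within 10 kb, and 4 (Crp, Hpx, Lbp and Socs3) had a member, 15.4%. Among genes with such a site a member was thus near 4 of 25, beside 1294 of 5669 over all measured genes. The 3 tested ones were higher by 1 or more at 3 h and at 48 h. Lbp, which binds bacterial lipopolysaccharide, was at 1.53 at 0 h, 17.5 at 3 h, 10.7 at 48 h, then 0.09 at 168 h. Immediate early genes had 4 of 24 (16.7%), and the growth hormone axis 3 of 18 (16.7%). Among genes with any 0 h site of both factors these were 4 of 19 and 3 of 13, near the share over all such genes. The list of replication and mitosis genes had 0 of 29, and 7 of the 29 had any 0 h site of both factors. Mcm10, a replication factor with a member 130 bp before its start, is not on that list. For the other cell types, 1 of 6 endothelial markers (Lyve1) and 1 of 6 stellate markers (Tagln) had a member nearby, and none of the Kupffer cell, cholangiocyte and lymphocyte markers had one. Few of these markers could have one. Any 0 h site of both factors lay near 2 of 6 endothelial, 1 of 6 stellate and 2 of 6 Kupffer cell markers. For cholangiocyte and lymphocyte markers it was 0 of 3 and 1 of 4. Of 6 hepatocyte markers 5 had such a site, and 3 (Apoa1, Hnf4a and Ttr) had a member.

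The genes of the factors themselves had no site not regained. Within 10 kb of Cebpa lay 5 regained sites and no member, and within 10 kb of Cebpb 2 and none. Pol II on Cebpa was at 93.2 at 0 h and, in the 7 later libraries, between 9.02 and 23.2. On Cebpb it was at 56.5 at 0 h, 381.3 at 3 h, 66.2 at 8 h, then 13.9 at 168 h. Cebpa was thus low at every later time, including 48 h and 168 h, and Cebpb was highest in the 3 h library, when C/EBPbeta listed the fewest members.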

How the data were processed

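ChIP-seq lists and Pol II values of mouse liver were used from 25 of 26 samples, grouped by antibody and time as titled. The deposited C/EBP and Egr1 files give a whole-number score per region; C/EBP scores run from 1 to 1000 within a list and were used only as within-list percentiles, per the file headers a NormDiff or Sum value. The deposited Pol II files give a signed signal per gene by the authors, from its values a sum over the gene body past about 500 bp, less a background; no source used here states its scaling. Per the submitters' processing notes, the build was mm9 and the tools included MACS 1.4.1 and Bowtie 0.12.7, with no role stated. The region caller of the C/EBP lists, filters and control libraries: not given in the sources used here. Depth is unknown, as the files hold no read counts, and signals carry no counting error.

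Sites, members, gene lists and tests were chosen with earlier results of these data known. Of 31804 gene entries, 20933 with a unique name, a body of at least 500 bp and a nuclear chromosome were measured; starts were moved back 500 bp by strand. Signal was divided by width and rescaled by median ratios (1472 genes above 0.5 in every library), which moved changes by up to 0.97 on the log2 scale (168 h). Values below 0 were set to 0 before log2(level + 0.5), so changes of low genes are understated. The 4761 genes above 0.5 in at least 2 libraries were fitted with limma 3.58.1 (R 4.3.3), using a natural spline (3 degrees of freedom) over ranked times, Benjamini-Hochberg adjusted, threshold 0.05. With 1 library per time, its error is the spread of libraries around a smooth curve. On simulated data with 4761 genes, the trend test recovered 6 of 100 genes whose planted log2 size was 2, and 72 of 100 at 4, and called 3 of 4561 others. Of the 584 tested genes near members, 470 names were current symbols and 86 older ones in the RefSeq table of GRCm38.p6. ChIP reads have no strand, so values of overlapping genes cannot be told apart.

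Named genes are the nearest genes of the 8 highest-scoring members, genes with 3 members, the 8 with a member within 1 kb and the highest 0 h level, the 8 lowest and 8 highest at 48 h and 168 h, those past the trend test, and examples from the lists. Other genes printed for their sequence follow the rule given there. The Wilson intervals are at 95% (statsmodels 0.14.6). Joining distance, list length, gene start, pseudocount, filter, scaling and left-out libraries were varied.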

Additional observations from a re-analysis of the deposited data

How the results depend on the processing

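The number of sites not regained was 2921 to 4427 under 5 alternatives and 1458 of 12347 when every list was limited to 20061 regions. Joining centres at 50 bp gave 15.8% of members in no later list; joining at 200 bp and equal lists gave 12.04% and 13.6%. The share within 1 kb of a start was 6.31% to 6.86%. Members rebuilt from equal lists were in the 3 h C/EBPbeta list in 5.49% of cases (chosen after seeing the data, as were all alternatives at 3 h and the reset of background levels). Counts of genes past a log2 change of 1 moved with the pseudocount. With 0.05, 268 genes (45.9%, all tested 34.99%) were lower at 3 h. Higher were 143 (24.5%, all tested 27.8%) at 48 h and 194 (33.2%, all tested 28.6%) at 168 h. With 2, 64 (10.96%, all tested 6.60%) were lower at 3 h. At 48 h 28 (4.79%, all tested 4.03%) were then lower and 14 (2.40%, all tested 3.38%) higher. At 168 h 31 (5.31%, all tested 6.07%) were lower and 24 (4.11%, all tested 2.58%) higher. Without rescaling, 169 genes (29.4%, all tested 35.2%) were lower at 168 h and 35 (6.09%, all tested 6.15%) higher. There the median of all tested genes was -0.57. Of 116 genes within 1 kb, 20 (17.2%, all tested 13.5%) were lower and 16 (13.8%, all tested 15.2%) higher at 48 h. At 168 h 21 (18.1%, all tested 19.3%) of them were lower and 24 (20.7%, all tested 17.7%) higher. Of 203 genes without a regained site 61 (30.05%, all tested 21.4%) were lower at 3 h. The share lower at 3 h was above that of all tested genes in each alternative (lowest 10.96% against 6.60%, highest 45.9% against 34.99%). The trend test called 0 genes near members in all alternatives and with each library left out (0 in each). At an unadjusted p under 0.05 it gave 47 of 584 in the main run (8.05%, all tested 9.62%). Without the 0 h library it gave 146 of 584, and with no filter on low values 144 of 1294. The other alternatives gave 34 to 65. Shares of all tested genes at that threshold are not given for the alternatives. No paired analysis was possible because each antibody and time has 1 sample, so no replicate numbers pair samples; the sign-flip test paired the factors by time. Depth is unknown, so absence from a list cannot be told apart from low coverage.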
